A study of Homo sapiens with 6 samples.

Results

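H3K4me2 at *PIK3R1*, the gene for the PI3-kinase regulatory subunit p85α, was examined in LNCaP cells as every peak record that overlapped a window of 290 kb around the gene (chr5:67460000-67750000, hg19). The gene lies on the plus strand from 67511584 to 67597649, and the members were fixed by position alone. The vehicle list held 14 such records of 99997, the GSK 4 h list 20 of 128134 and the GSK 24 h list 25 of 127189. Records that overlapped by at least 1 bp were joined into 24 regions, of 151839 in all. In short, the 2 tall H3K4me2 sites of the locus, at the gene start and deep in the gene body, had lower summits in both GSK lists. The tags in the 10 kb around them, read from the caller's background, stayed closer to vehicle. They count H3K4me2 only if no input control was used, which is not known here. Tall regions of the whole genome were also lower more often than regions at large. The strongest 10% of regions with 1 record per list were taken by height in the GSK list not compared. Of these, 28.3% of 5517 (GSK 4 h) and 48.0% of 5450 (GSK 24 h) were at least 1.5 times lower. By height ratio, the gene body site stood at percentiles 16.9 and 36.4 of these strong regions. Regions were not ranked by vehicle height. Of the 24 regions, 13 were absent from the vehicle list, 6 of them in the gene body, 6 downstream and 1 upstream (39.8% of all regions of the genome were absent from it).

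LNCaP is an androgen-responsive prostate cancer line. Before treatment the medium held charcoal-stripped, androgen-poor serum. The 6 samples form 3 groups of 2 replicates: vehicle without GSK, DHT with GSK2879552 for 4 h, and DHT with GSK2879552 for 24 h. DHT is the androgen dihydrotestosterone and GSK2879552 an inhibitor of the histone demethylase LSD1. The treatment protocol names the inhibitor alone, and no group had DHT without the inhibitor, so an effect of androgen and one of LSD1 inhibition cannot be told apart. Each peak list combines both replicates of its group. There is thus no replicate spread behind any value, no comparison between conditions could be tested, and the intervals given here cover counting error only. Luminal prostate markers and neighbouring genes were not analysed here, for want of gene models in this build.

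PI3K is a heterodimer of a p110 catalytic and a p85 regulatory subunit. The regulatory subunit holds the catalytic one inactive until its SH2 domains bind phosphorylated tyrosines of receptors or adaptors, after which the lipid product recruits AKT to the membrane. *PIK3R1* also yields the shorter forms p55α and p50α, which start inside the gene and share the SH2 domains of p85α. LSD1 removes methyl groups from mono- and dimethylated lysine 4 of histone H3, and H3K4me2 is found at enhancers and around active start sites. The study named an enhancer in the gene body (*PIK3R1*-enh) and, past the gene, a site bound by LSD1 (*PIK3R1*-LBS). At the enhancer it reported less H3K4me2 after the inhibitor, by ChIP-seq and ChIP-qPCR, and no binding of LSD1. At *PIK3R1*-LBS it found H3K4me2 barely detectable, and higher after the inhibitor by ChIP-qPCR.

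RefSeq gives 4 start sites of *PIK3R1* (GRCh38.p14, plus strand). Their windows, from 250 bases before to 50 after each start, are shown because the tall H3K4me2 records lay near the first and near the position at which the second would fall. CpG dinucleotides are in capitals.
PIK3R1 start 1, chr5:68215506-68215805: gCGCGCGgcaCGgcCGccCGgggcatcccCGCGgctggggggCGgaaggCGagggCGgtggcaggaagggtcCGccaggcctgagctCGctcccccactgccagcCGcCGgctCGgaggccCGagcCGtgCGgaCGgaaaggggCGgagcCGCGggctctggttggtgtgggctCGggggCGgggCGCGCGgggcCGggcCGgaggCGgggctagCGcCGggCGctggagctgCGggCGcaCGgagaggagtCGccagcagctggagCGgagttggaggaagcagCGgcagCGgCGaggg
PIK3R1 start 2, chr5:68288269-68288568: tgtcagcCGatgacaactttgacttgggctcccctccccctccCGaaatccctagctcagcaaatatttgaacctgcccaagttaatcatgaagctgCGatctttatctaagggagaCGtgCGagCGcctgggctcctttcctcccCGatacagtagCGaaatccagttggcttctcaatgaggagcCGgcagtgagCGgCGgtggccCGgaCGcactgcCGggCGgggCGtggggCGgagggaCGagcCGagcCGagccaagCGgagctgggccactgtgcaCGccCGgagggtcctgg
PIK3R1 start 3, chr5:68290414-68290713: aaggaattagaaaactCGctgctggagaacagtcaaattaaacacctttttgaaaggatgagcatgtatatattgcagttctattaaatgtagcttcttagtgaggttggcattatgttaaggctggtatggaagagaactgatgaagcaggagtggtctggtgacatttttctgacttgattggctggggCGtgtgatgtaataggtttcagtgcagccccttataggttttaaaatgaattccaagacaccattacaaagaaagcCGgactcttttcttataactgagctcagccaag
PIK3R1 start 4, chr5:68292327-68292626: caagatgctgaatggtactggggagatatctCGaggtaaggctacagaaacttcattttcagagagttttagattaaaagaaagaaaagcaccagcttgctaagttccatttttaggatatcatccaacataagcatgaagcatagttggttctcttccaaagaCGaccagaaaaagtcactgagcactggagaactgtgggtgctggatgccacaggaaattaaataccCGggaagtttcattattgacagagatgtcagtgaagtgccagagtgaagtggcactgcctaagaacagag

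The first window has 42 CpG and a GC content of 80.0%, which put it at percentiles 94.6 and 97.5 of the 35116 RefSeq windows of this length. The second has 23 CpG and a GC content of 62.3%, at percentiles 65.2 and 59.9. The remaining windows, of starts 3 and 4, have 3 CpG each, at percentile 21.3, with GC contents of 40.0% and 42.3%. Starts 1 and 2 are thus the CpG-rich ones. The GC box GGGCGG, searched on both strands, occurs 5 times in the first window and 2 times in the second, and 45.0% of all windows hold it. The androgen receptor half-site AGAACA, also searched on both strands, occurs 1 time in each of the windows of starts 3 and 4, and 14.8% of all windows hold it. The forkhead motif TGTTTAC, present in 3.42% of all windows, matched none of the 4.

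The starts were then set beside the records by their distance from the first start, without converting positions between builds. The gene is 86066 bp long in the hg19 span used here and in GRCh38, but equal spacing within it was not checked. In GRCh38 starts 2, 3 and 4 lie 72763, 74908 and 76821 bp after the first. In hg19 the summit of the strongest gene body record lay 72827 (vehicle), 72898 (GSK 4 h) and 73078 bp (GSK 24 h) after the gene start. A weaker record, listed only after GSK, had its summit at 74814 (GSK 4 h) and 74791 bp (GSK 24 h). The next summit was 80279 bp (vehicle) after the start, so none was found near the distance of start 4. The primers of the study were not placed on the genome, so whether the strongest gene body record holds the *PIK3R1*-enh amplicon was not tested.

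For each record the peak caller gave a fold enrichment, the summit over its own surroundings. The number of fragments over the summit (pileup) and the background that the caller set for the record were recovered from the fold and its p-value. That background was read as the tags in the 10 kb around the summit, the summit included. They are H3K4me2 tags only if no input control was used, which is not given in the sources used here. Height is the pileup over the background that the caller took for the whole genome (2.08 fragments in vehicle, 1.88 in GSK 4 h and 1.97 in GSK 24 h), and 1 is thus the background. The depth was 9.43, 10.1 and 8.98 tags per kb in the same order. Percentiles rank a record within its own list.

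**Figure D1:**
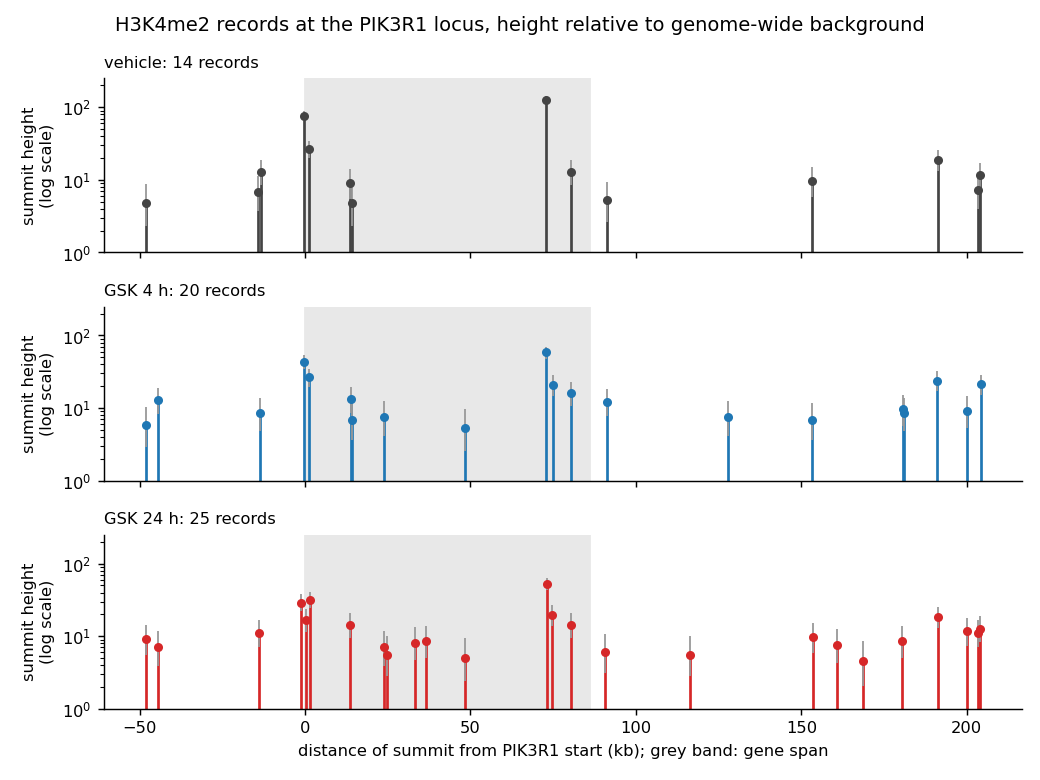
Summit height of every record in the window (log axis, 1 is the genome-wide background) against distance from the *PIK3R1* start in kb, 1 panel per list. Error bars are 95% Poisson intervals, and the grey band is the gene. The 2 tall sites, at the start and about 73 kb into the gene, rise above all other regions in every panel, and the 14 vehicle records compare with 20 and 25 in the GSK lists.

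The strongest site of the locus lay in the gene body in all 3 lists. The vehicle record spanned 67583854 to 67585156 (1303 bp), with 261 fragments over a summit at 67584411. This gave a height of 125 (95% interval 110 to 141), a fold of 12.6 and a -log10 q of 186. The GSK 4 h record spanned 67583476 to 67585369 (1894 bp), with 110 fragments over its summit, a height of 58.4 (48.0 to 70.4), a fold of 6.40 and a -log10 q of 49.0. The GSK 24 h record spanned 67583749 to 67585276 (1528 bp), with 104 fragments, a height of 52.9 (43.2 to 64.1), a fold of 6.37 and a -log10 q of 45.9. Both GSK summits were lower than the vehicle summit, and both GSK records were longer.

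The height ratio to vehicle was 0.467 (95% interval 0.370 to 0.585) at 4 h of GSK and 0.422 (0.333 to 0.532) at 24 h. Between GSK 24 h and GSK 4 h it was 0.905 (0.686 to 1.19), an interval that includes 1. The summit lay 71 bp further into the gene in the GSK 4 h list and 251 bp further in the GSK 24 h list. The tags in the 10 kb around the summit numbered 896 (vehicle), 878 (GSK 4 h) and 707 (GSK 24 h). Per depth, these were 9.50, 8.68 and 7.88 times the genome-wide level. The ratio of tag sums was therefore 0.913 (0.831 to 1.004) at 4 h and 0.829 (0.750 to 0.916) at 24 h. In both GSK lists, the summit was lower by a larger factor than the 10 kb around it.

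The rank of this site depended on the measure. By fold, it stood at percentile 96.9 for vehicle, 74.6 at 4 h of GSK and 78.4 at 24 h. By height, it stood at 97.3, 97.4 and 98.8, and by p-value at 97.9, 96.3 and 97.8. The fall in rank was thus seen for the fold over surroundings and not for the height within the list.

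The promoter held a second tall site, a region of several records between 67510327 and 67513287. In the vehicle list, a record of 1656 bp ran across the gene start (67510391 to 67512046). Its summit lay 208 bp before the start and was covered by 158 fragments, with a height of 75.8 (64.4 to 88.6), a fold of 8.57 and a -log10 q of 89.0. A second vehicle record of 604 bp (67512534 to 67513137) had 55 fragments at its summit, 1289 bp after the start, with a height of 26.4 (19.9 to 34.3). The vehicle signal was thus tallest close to the start and lower inside the gene.

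In the GSK 4 h list, no record covered the start. A gap of 444 bp, from 165 bp before to 278 bp after it, separated a record of 1066 bp (67510353 to 67511418) from one of 1139 bp (67511863 to 67513001). The first had 82 fragments over a summit 422 bp before the start, a height of 43.6 (34.7 to 54.1) and a fold of 6.09. The second had 50 fragments over a summit 1256 bp after the start, a height of 26.6 (19.7 to 35.0) and a fold of 3.72. The upstream flank had the higher value, and the height intervals just overlapped.

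In the GSK 24 h list, the region was split into 3 records with gaps of 286 and 645 bp, and the gene start lay in the first gap. The upstream record of 1026 bp (67510327 to 67511352) had 57 fragments over a summit 1100 bp before the start and a height of 29.0 (22.0 to 37.6). A short record of 224 bp (67511639 to 67511862) had 33 fragments over a summit 168 bp after the start, a height of 16.8 (11.6 to 23.6) and a fold of 2.56. The downstream record of 780 bp (67512508 to 67513287) had 62 fragments over a summit 1410 bp after the start, a height of 31.5 (24.2 to 40.4) and a fold of 4.77. Here the downstream flank had the higher value, and the height intervals again overlapped.

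**Figure D2:**
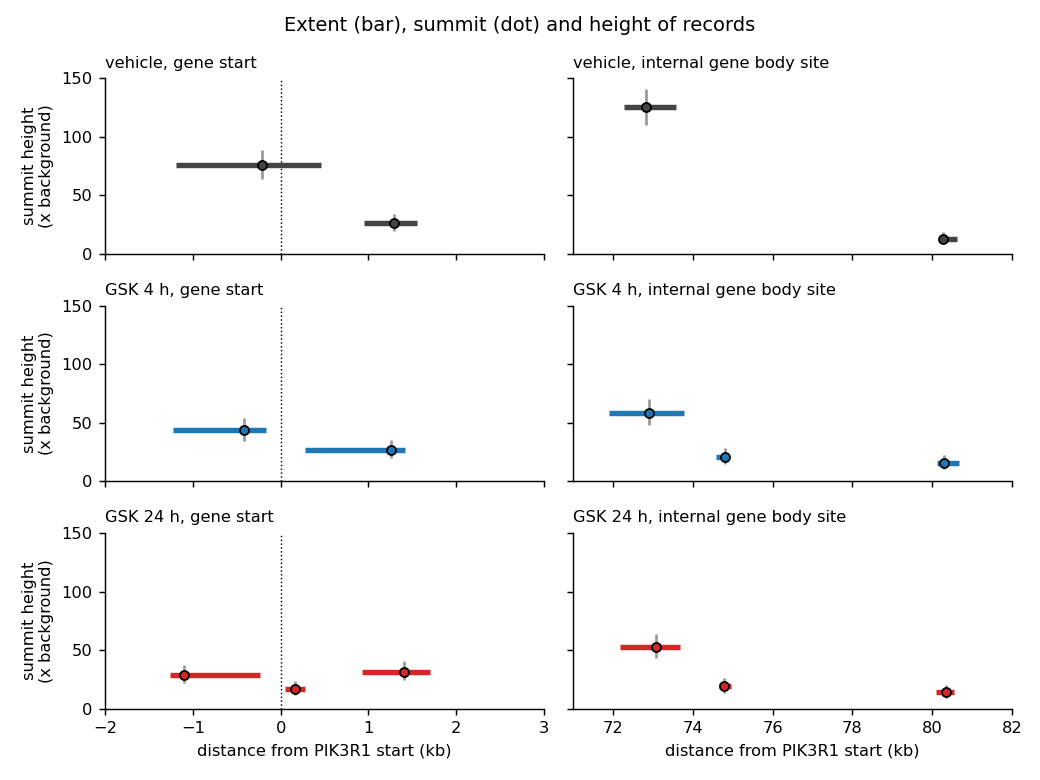
Records around the *PIK3R1* start (left) and around the strongest gene body site (right), 1 row per list, with distance from the start in kb and height in multiples of the genome-wide background. Bars show the extent of a record, dots its summit, and error bars 95% Poisson intervals. At the start (dotted line) the vehicle record of height 75.8 gives way to flanking records with a gap over the start, and the gene body site falls from 125 to 58.4 and 52.9.

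Record by record, the upstream-most promoter record was lower in the GSK lists. For the downstream-most record no fall was detectable at this depth. The upstream-most records did not share a position: the vehicle one ran across the start, with its summit 208 bp before it. The GSK summits lay 422 bp (4 h) and 1100 bp (24 h) before the start, and no vehicle height was available at those places. The upstream-most record had a height ratio to vehicle of 0.575 (0.435 to 0.755) at 4 h of GSK and 0.382 (0.277 to 0.521) at 24 h. It was also lower in GSK 24 h than in GSK 4 h, at 0.665 (0.466 to 0.944). The downstream-most record had ratios of 1.01 (0.672 to 1.504) and 1.20 (0.818 to 1.75), intervals that include 1. If the record nearest the start is taken in each list, the ratio for GSK 24 h is 0.221 (0.147 to 0.324), since the short record is then the one compared. If the tallest record is taken, it is 0.416 (0.305 to 0.561).

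The tags in the 10 kb around the upstream-most summit numbered 794 (vehicle), 679 (GSK 4 h) and 560 (GSK 24 h). Per depth, the ratio to vehicle was 0.797 (0.718 to 0.884) at 4 h and 0.741 (0.664 to 0.827) at 24 h. The upstream-most promoter record and the gene body site were thus alike: the summit was lower by a larger factor than the 10 kb sum. At the promoter, however, the intervals of both ratios overlapped at 4 h. The downstream-most promoter record went the other way, with height ratios of 1.01 (GSK 4 h) and 1.20 (GSK 24 h) against tag ratios of 0.796 and 0.733. The 10 kb sum per depth was lowest in the GSK 24 h list at both sites. Between GSK 24 h and GSK 4 h the ratio of sums was 0.908 (0.821 to 1.003) at the gene body site and 0.930 (0.830 to 1.04) at the promoter, intervals that include 1. The vehicle record stood at percentile 87.9 by fold and 94.0 by height. The upstream-most records stood at 70.5 by fold and 92.6 by height (GSK 4 h) and at 39.9 by fold and 88.1 by height (GSK 24 h). The downstream-most record ranked higher by fold in the GSK lists, at percentiles 5.46 (vehicle), 18.5 (GSK 4 h) and 52.4 (GSK 24 h). By height it stood at 81.4, 81.2 and 90.4.

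**Figure D3:**
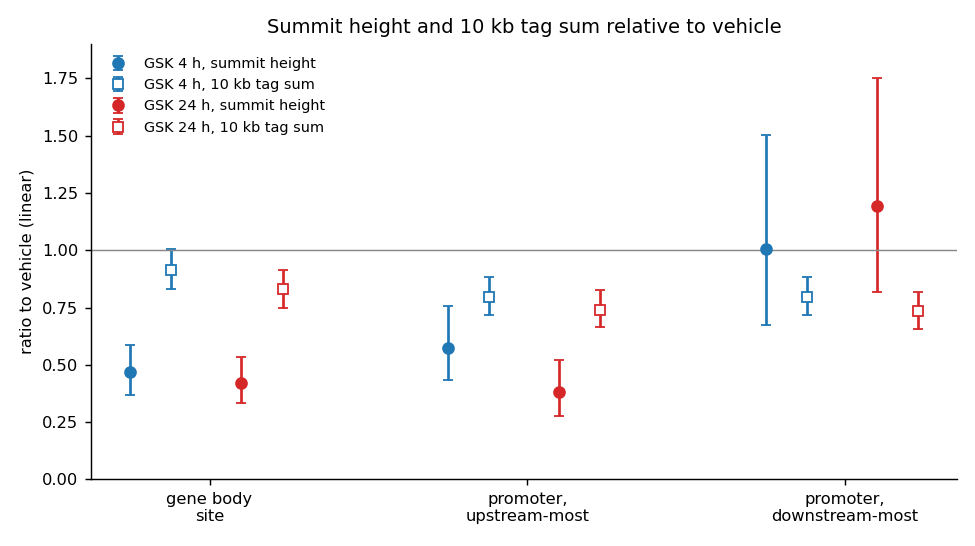
Ratio to vehicle of the summit height (filled circles) and of the tag sum over 10 kb around the summit (open squares) at 3 records, for GSK 4 h and GSK 24 h. Error bars are exact 95% intervals for a ratio of counts. Tag sums are of H3K4me2 only if no input control was used. Heights at the gene body site (0.467 and 0.422) and upstream-most promoter record (0.575 and 0.382) lie below their tag sums, and those of the downstream-most promoter record (1.01 and 1.20) above.

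These changes were read against regions of the whole genome. In 53781 regions, each list had exactly 1 record. Among them the height was at least 1.5 times lower than vehicle in 10.4% (GSK 4 h) and 11.2% (GSK 24 h), and at least 1.5 times higher in 24.5% and 15.3%. The median ratio was 1.19 (GSK 4 h) and 1.11 (GSK 24 h). Of the 7 such regions at the *PIK3R1* locus, 1 was lower by this rule in each GSK list, the gene body site in both cases. At least 1.5 times higher were 2 regions in GSK 4 h and 1 in GSK 24 h. The median ratio of the 7 regions was 1.23 (GSK 4 h) and 1.10 (GSK 24 h).

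The gene body site is a tall one, and tall regions were lower more often. Among the strongest 10%, ranked by height in the GSK list that is not compared, the height was at least 1.5 times lower in 28.3% at 4 h of GSK and 48.0% at 24 h. The log2 ratio of the gene body site, -1.10 for GSK 4 h and -1.24 for GSK 24 h, stood at percentiles 16.9 and 36.4 of these strong regions, and at 5.32 and 6.84 of all 53781 regions. The tag sum ratio of the site stood at percentiles 38.0 (GSK 4 h) and 57.5 (GSK 24 h) of the strong regions.

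Strong regions fell into a lower and an upper mode. For GSK 4 h, 7.12% lay in the bin from -1.4 to -1.2, 3.81% from -0.8 to -0.6 and 15.7% from 0.2 to 0.4 on the log2 scale. For GSK 24 h, 6.40% lay from -1.8 to -1.6, 2.92% from -0.8 to -0.6 and 14.1% from 0 to 0.2. The gene body site lay on the lower side of the dip in both lists. The promoter has several records per list and is not among these regions. Of 72744 regions present in the 3 lists, taken by their tallest summits, its log2 ratios of -0.80 (GSK 4 h) and -1.27 (GSK 24 h) stood at percentiles 9.30 and 8.28, and it was not ranked among strong regions alone.

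**Figure D4:**
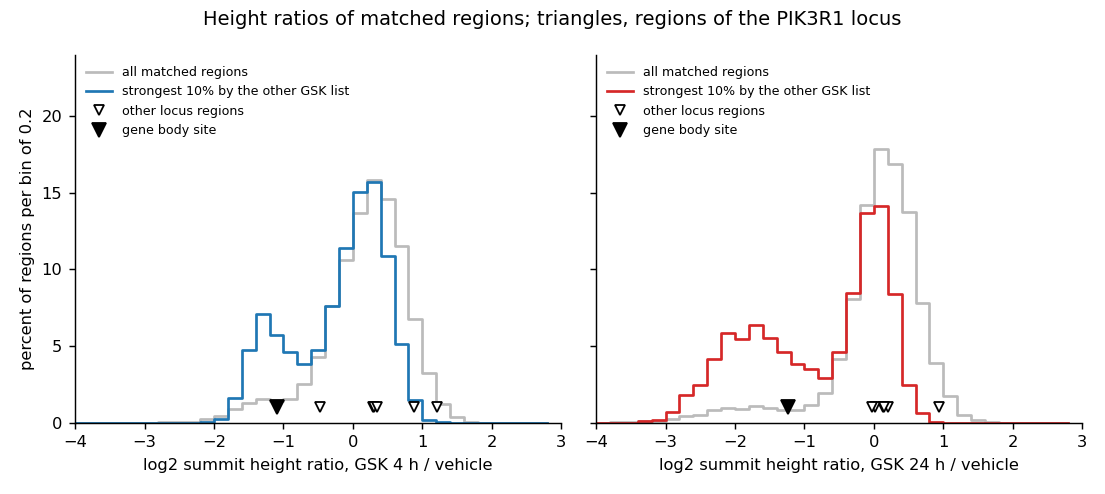
Percent of regions per bin of 0.2 against the log2 ratio of summit height to vehicle, for GSK 4 h (left) and GSK 24 h (right). Grey lines are all 53781 matched regions and coloured lines the strongest 10% by the other GSK list. The filled triangle marks the gene body site at -1.10 and -1.24, on the lower side of the dip, and open triangles the other 6 matched regions of the locus, of which the lowest are at -0.47 and -0.03.

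The remaining records of the gene body were low. A region at 67591677 to 67592259, 80.3 kb into the gene, had heights of 12.95 (vehicle), 15.9 (GSK 4 h) and 14.2 (GSK 24 h), with ratios of 1.23 (0.707 to 2.15) and 1.10 (0.625 to 1.94). A region 13.7 kb into the gene, at 67525134 to 67526079, was listed as 2 records in vehicle and GSK 4 h and as 1 record in GSK 24 h, with highest heights of 9.12, 13.3 and 14.2. Neither was lower in the GSK lists, unlike the tall gene body site.

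Gene body regions listed only after GSK numbered 6, and 39.8% of all regions of the genome were likewise absent from vehicle. The one at 67586162 to 67586539, beside the strongest site, had heights of 20.7 (GSK 4 h, 39 fragments) and 19.3 (GSK 24 h, 38 fragments). Its fold was 2.28 and 2.34, at percentiles 0.853 and 0.969, and its surroundings held 889 and 714 tags in 10 kb. Of the others, those at 67535414 to 67535818 and at 67559781 to 67560215 were in both GSK lists, with heights of 7.44 and 7.12, and of 5.31 and 5.09. The 3 in the GSK 24 h list alone had their summits at 67536277, 67544702 and 67548302, with heights of 5.60, 8.14 and 8.65. All of these, the first one apart, were covered by 10 to 17 fragments.

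Downstream of the gene, 152 kb of the window held 5 vehicle, 8 GSK 4 h and 10 GSK 24 h records. The tallest in every list was at 67702377 to 67703252, 105.1 kb past the gene end. Its heights were 18.7 (vehicle), 23.9 (GSK 4 h) and 18.3 (GSK 24 h), with 39, 45 and 36 fragments. The ratios were 1.28 (0.814 to 2.01) and 0.979 (0.604 to 1.58), so a difference in height was not detectable at this depth. Its tags over 10 kb numbered 125, 133 and 154, with ratios per depth of 0.992 (0.771 to 1.28) and 1.29 (1.02 to 1.65), the latter an interval above 1. Its fold percentiles were 94.1, 99.4 and 93.9.

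A region 5.07 kb past the gene end, at 67602195 to 67602975, had heights of 5.28 (vehicle), 12.2 (GSK 4 h) and 6.10 (GSK 24 h). The GSK 4 h value was 2.32 times vehicle (1.08 to 5.26), and the GSK 24 h value 1.16 times (0.467 to 2.89). These rest on 11, 23 and 12 fragments. At the far end of the window, a region at 67715404 to 67716237 had heights of 11.5, 21.3 and 12.7, with a ratio of 1.85 (1.09 to 3.20) at 4 h of GSK and 1.10 (0.605 to 2.02) at 24 h. Its tag sum over 10 kb was higher in both GSK lists, at 152 (vehicle), 274 (GSK 4 h) and 261 (GSK 24 h) tags. The tag ratios of 1.68 (1.37 to 2.06) and 1.80 (1.47 to 2.22) stood at percentiles 98.4 and 99.5 of matched regions whose background was local in both lists. Thus the 10 kb tag sum there was higher after GSK at both times, in contrast to the summit, which was higher at 4 h.

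A neighbouring region at 67714743 to 67715296 was in the vehicle and GSK 24 h lists, with heights of 7.20 and 11.2. Another downstream region present in the 3 lists, at 67664569 to 67665526, had heights of 9.60, 6.91 and 9.66. Its ratios of 0.720 (0.329 to 1.52) and 1.01 (0.509 to 1.99) had wide intervals.

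Downstream regions absent from the vehicle list also numbered 6, to be read against the same 39.8%. Those at 67691799 to 67692914 and at 67711319 to 67711645 were in both GSK lists, with tallest heights of 9.56 (GSK 4 h, as 2 records) and 8.65 (GSK 24 h) at the former and of 9.03 and 11.7 at the latter. The region at 67639064 to 67639471 was in the GSK 4 h list alone, with a height of 7.44 from 14 fragments. Regions with summits at 67628026, 67672497 and 67680163 were in the GSK 24 h list alone, with heights of 5.60, 7.63 and 4.58 from 11, 15 and 9 fragments. No vehicle record lay between 67602901 and 67664619, where each GSK list had 1 record of its own, at different places. Which of these, if any, lies at *PIK3R1*-LBS was not analysed here.

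Upstream of the promoter, the 3 lists had 3 records each. At 67463231 to 67463613 the heights were 4.80 (vehicle), 5.84 (GSK 4 h) and 9.16 (GSK 24 h), with ratios of 1.22 (0.470 to 3.20) and 1.91 (0.835 to 4.63). A region 13.4 to 14.1 kb before the start by its vehicle summits, at 67497278 to 67498548, had 2 vehicle records, the taller with a height of 12.95, and 1 record in each GSK list, with heights of 8.501 and 11.2. The GSK lists also had a record at 67466915 to 67467316 that the vehicle list lacked, with heights of 12.8 (GSK 4 h) and 7.12 (GSK 24 h). Its fold stood at percentile 91.6 at 4 h and 35.8 at 24 h.

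Across the window, record number was 1.43 (GSK 4 h) and 1.79 (GSK 24 h) times that of vehicle. In 4435 tiles of the genome of the same length with at least 10 vehicle records, the median ratio was 1.20 (GSK 4 h) and 1.17 (GSK 24 h). A ratio of at least 1.5 was found in 14.7% (GSK 4 h) and 11.9% (GSK 24 h) of the tiles. The *PIK3R1* window passed 1.5 in GSK 24 h and not in GSK 4 h, but this depended on the records kept. With lists cut to equal length the window held 14, 16 and 20 records (vehicle, GSK 4 h, GSK 24 h) and neither GSK list passed, whereas with records within 1 kb merged it held 10, 16 and 20 and both passed. The share of tiles that pass was not computed under these settings. Of the GSK records in regions absent from vehicle, 1 of 8 at 4 h and 0 of 12 at 24 h had a -log10 q of at least 10, the former being the upstream record at 67466915. The share of such records in the whole genome that pass this q was not analysed here. With records under a -log10 q of 10 left out, the window held 9 vehicle, 9 GSK 4 h and 7 GSK 24 h records. Covered length in the window was 8086 bp (vehicle), 11701 bp (GSK 4 h) and 15091 bp (GSK 24 h). At the promoter it moved the other way, from 2260 to 2205 and 2030 bp. The median fold percentile of gene body records was 75.03 (vehicle), 56.1 (GSK 4 h) and 47.1 (GSK 24 h). For downstream records it was 63.2, 58.4 and 36.0, and for the 3 upstream records 37.3, 67.9 and 63.2, in the same order. These medians do not follow the same sites, since the gene body held 4, 7 and 9 records. Its 2 low regions present in the 3 lists did not fall by fold percentile. The one at 67525134, by its tallest record, stood at 73.0, 86.8 and 84.0, and the one at 67591677 at 77.1, 82.8 and 77.9.

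Of the 24 regions, 10 were in the 3 lists (all regions of the genome, 47.9%), 6 in both GSK lists only (11.0%), 6 in GSK 24 h only (14.3%), 1 in GSK 4 h only (14.5%) and 1 in vehicle plus GSK 24 h without GSK 4 h (3.84%). None was in vehicle only (5.45%), or shared by vehicle and GSK 4 h without GSK 24 h (2.97%). Every vehicle record at the locus thus overlapped a record of at least 1 GSK list. The 12 GSK 24 h records in regions absent from vehicle had -log10 q values from 2.63 to 8.51, and the 8 GSK 4 h records from 3.50 to 16.5. By fold, their medians were at percentiles 34.0 and 50.2. Each rests on 9 to 39 fragments, and whether the sites fell just short of the vehicle threshold was not tested.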

How the data were processed

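H3K4me2 ChIP-seq of LNCaP cells was deposited as 3 narrowPeak lists, each made by the authors from both replicates of a group. Per the labels, BWA 0.7.2-r351, SAMtools 0.1.18 and MACS2 2.0.10.20131216 were used with hg19 (GRCh37), and the settings are not given in the sources used here. The deposited values are a fold enrichment (ratio), -log10 p-values and q-values, a display score (about 10 times the -log10 q) and a summit offset. They are not normalised between lists.

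Autosomal, X and Y records were analysed with Python 3.11.15, NumPy 2.4.6, pandas 2.3.3 and SciPy 1.17.1. A pileup and a background were sought for each record such that the fold was (pileup + 1)/(background + 1) and the p-value the Poisson chance of a higher pileup. With a tolerance of 0.001 in -log10 p, whole pileups resulted for all records but 2, in the vehicle list. The step was tested on data simulated with the same formula, which cannot show whether the deposited values follow it. The background above the genome-wide level was read as tags in 10 kb multiplied by the shortest record (221, 186 and 219 bp for vehicle, GSK 4 h and GSK 24 h), taken as the fragment length. Fragment length differs between lists, and its part in the heights was not tested. Whether an input control was used is not given in the sources used here. With one, the 10 kb sums would not count H3K4me2 tags. A height is relative to all tags of its list.

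Summit pileups have exact Poisson intervals and ratios exact conditional binomial intervals (95%). Records were placed by their summits, with the promoter as 2.5 kb on each side of the gene start. The promoter record was the one over or nearest the start, and the gene body site the region with the highest sum of -log10 p over the 3 lists. The locus, these rules and the comparisons were chosen with earlier results of these data known. The 10 kb tag sums, the tallest promoter record, the flanking promoter records, the tiles and the regions taken by their tallest summits were added after the values were seen. RefSeq start windows are in GRCh38.p14, and no position was converted between builds. No condition was tested, since each group has 1 list.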

Additional observations from a re-analysis of the deposited data

How the results depend on the processing

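No paired analysis was possible because every group has 1 list made from its 2 replicates, which also prevented leaving one out. The planned check of marker genes was not run, since no hg19 annotation was used. Counts of records per segment and of regions by list stayed within 1.5 times under each alternative run for them.

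For vehicle, GSK 4 h and GSK 24 h, the window held 14, 20 and 25 records. Leaving out those under a -log10 q of 10 gave 9, 9 and 7, and there were 7, 10 and 13 in the gene span with 10 kb on each side. At the stricter q the GSK lists held no more records than vehicle in this window. The share of all records that pass it was not analysed here. A -log10 q minimum of 5, merging within 1 kb and lists of equal length kept each count within 1.5 times. Each of them still changed whether a GSK list held at least 1.5 times the vehicle records. The counts were 10, 15 and 17 at the q minimum of 5, 10, 16 and 20 after merging, and 14, 16 and 20 at equal length. The share of genome tiles that pass 1.5 was not computed under these settings.

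The log2 height ratios of the gene body site stayed within their counting intervals by fold, by pileup per tag depth and by height above background, as did those of the promoter record. By the 10 kb tag sum they were smaller: -0.13 (GSK 4 h) and -0.27 (GSK 24 h) at the gene body site, and -0.33 and -0.43 at the promoter, against -1.10, -1.24, -0.80 and -2.18. With the tallest promoter record, the GSK 24 h value was -1.27. All kept their direction.

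Percentiles by fold, in the same order of lists, were 96.9, 74.6 and 78.4 at the gene body site and 87.9, 70.5 and 2.04 at the promoter record. Ranked by -log10 p they were 97.9, 96.3 and 97.8, and 93.8, 91.9 and 22.3. Ranked by recovered pileup they were 97.3, 97.4 and 98.8, and 94.0, 92.6 and 69.7.

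Shares of matched regions at least 1.5 times lower or higher are given as GSK 4 h lower, GSK 4 h higher, GSK 24 h lower and GSK 24 h higher. At a fold of 2 they were 5.98%, 4.95%, 7.83% and 2.51%. In the strongest 10% they were 28.3%, 7.504%, 48.0% and 0.881%, so that lower regions outnumbered higher ones there. With summits within 250 bp they were 8.45%, 25.1%, 8.33% and 16.6%. For all regions in the 3 lists by their tallest summits, the first 3 were 12.3%, 24.1% and 13.4%. The cause was not tested. Depth limits what can be said of the low records. The summits of those in regions absent from vehicle rest on 9 to 39 fragments.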
